A study of Mus musculus with 24 samples.

Results

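Hypoxia and glycolysis genes were followed in the mouse prostate tumour line Myc-CaP after 6 days with one of 7 drug treatments or with DMSO. The list holds 39 gene symbols of the 55487 genes in the deposited count table. Its members were chosen with earlier results of these same counts in view, and which values were used is not recorded. Every drug against DMSO contrast was therefore treated as used in the choice. The values and calls of the members are a description only, and no p-value is given for a member. The 39 symbols matched 40 rows, because Aldoa has a second, nearly empty row. Of these, 35 symbols in 36 rows had enough counts for the fit.

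All cells carried the label MYC overexpressing; Myc-CaP was derived from a mouse whose human MYC transgene is driven by a probasin promoter. PF-06873600 (500 nM) inhibits CDK2, CDK4 and CDK6. Palbociclib (1 µM) inhibits CDK4 and CDK6. The group labelled T/P was read as 25 nM trametinib, a MEK inhibitor, with 1 µM palbociclib, because the treatment text lists both and the label gives only the initials. Alisertib (500 nM) inhibits Aurora kinase A, docetaxel (3.75 µM) stabilises microtubules, etoposide (500 nM) traps topoisomerase II on DNA, and Nutlin (500 nM, titled Nutlin-3) blocks the binding of MDM2 to p53. Medium with drug was renewed every 3 days. Each of the 8 groups had 3 libraries, all labelled batch 1. The labels do not say whether these came from separate cultures, so the spread between them may be partly technical. The series compares drugs that bring on senescence, and each comparison with DMSO asks how these genes differed after 6 days.

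Cells take up glucose through transporters such as the product of Slc2a1 and split it in the cytosol into pyruvate, which is either reduced to lactate or passed to the mitochondria. When oxygen is low, prolyl hydroxylases (the Egln proteins) no longer mark the HIF-1α protein for destruction, and HIF-1α with its partner Arnt binds short sites around the core RCGTG and raises transcription of glycolytic enzymes, of Pdk1 and Bnip3, and of Vegfa. HIF-1α is set mainly by protein stability, so its mRNA need not follow its activity. MYC binds the related sequence CACGTG and shares several glycolytic target genes with HIF-1. Many tumour lines run glycolysis at a high rate also when oxygen is present.

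Library totals ran from 21260781 to 28318784 counts in 23 libraries, and Docetaxel 1 had 69757257. Levels are given as CPM, counts scaled to TMM-adjusted library sizes, and "lower" or "higher" calls are edgeR quasi-likelihood calls with an adjusted p under 0.05 over 15527 genes. Among markers of prostate epithelium, Foxa1 stood at 159.7 CPM or more in every library, while Epcam, Cdh1 and Krt18 did not pass 1.21 CPM in any. Krt8 averaged 4.54 to 15.7 CPM with the drugs, against 35.7 CPM in DMSO. Col1a1, Pecam1 and Ptprc, defining markers of fibroblasts, endothelium and leukocytes, reached at most 1.76 CPM, and Lum was at 0 in all libraries. The 7 fibroblast markers summed to 10.6 to 29.3 CPM in the drug libraries, mostly Pdgfra, against 13.5 to 22.01 CPM in DMSO. The 7 endothelial markers summed to 0.132 to 8.35 CPM in the drug libraries, with Vwf the highest of them in each group mean, against 0.199 to 0.580 CPM in DMSO. The 8 leukocyte markers, mostly Cd68, summed to 1.47 to 4.73 CPM with the drugs, against 1.24 to 2.79 CPM in DMSO. The 6 red blood cell markers, nearly all Hba-a1, summed to 16.4 to 52.5 CPM with the drugs, against 86.3 to 125 CPM in DMSO, without overlap. The summed level of 5 nuclear RNAs, a rough sign of RNA quality, was lowest in library 2 of each of the 8 groups. It was 388 to 655 CPM with PF-06873600, 1152 to 1561 with palbociclib, 493 to 908 with T/P, 775 to 1596 with alisertib, 592 to 1803 with docetaxel, 478 to 1425 with etoposide and 536 to 1973 with Nutlin, against 365 to 678 CPM in DMSO. The part of these RNAs and markers in the results was not tested. Without the libraries numbered 2, 30 to 33 of the 36 rows tested were called in each comparison with DMSO, against 30 to 33 with them. Nutlin 1 and Nutlin 2 differed more than any other pair of one group (a chi-square of 54.0 per degree of freedom, against 2.91 to 27.0 in the others). In bulk RNA, fewer cells with a transcript and less of it per cell cannot be told apart. All 7 drug groups are set against the same 3 DMSO libraries, so their differences are not independent of each other.

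Promoter letters are shown because many of these genes are known HIF targets. RefSeq (GRCm38.p6) lists promoter windows of 300 bases, 250 before to 50 after a start, for 36 of the 39 symbols, some with more than 1; Bnip3l, Plod2 and Ndrg1 have no entry in the table. The first motif searched was ACGTG, whose other strand reads CACGT. The second motif was GCGTG, whose other strand reads CACGC. The palindrome CACGTG holds the first motif on both strands. At least 1 of them stood in a window of 33 of the 36 members (91.7%), against 7085 of 10737 genes tested in the fit that have a window (66.0%) and 12628 of all 27025 genes (46.7%). ACGTG stood in windows of 25 members (69.4%), against 29.0% of the genes tested and 21.8% of all genes, and GCGTG in windows of 23 members (63.9%), against 54.2% and 35.2%. The full CACGTG stood in windows of 5 members (13.9%), against 11.5% of the genes tested. These are shares of genes, and the 36 members have 52 windows where the 10737 genes tested have 13666. Counted by window, CACGTG stood in 9.62% for members and 9.71% for the genes tested, and GCGTG in 57.7% and 48.4%. By window ACGTG stood in 51.9% and 25.0% in the same order, and ACGTG or GCGTG in 80.8% and 60.1%. A match is a description of the letters, not a bound site. The 7 stretches below, read 5′ to 3′ along the gene and ending at the start or at the edge of the annotated gene, show 5 members called lower with all 7 drugs, Hk2, which was called lower with 6 and not with Nutlin, and Plod1, which was called lower with none. Capitals mark each motif on either strand. These 7 genes were not chosen by a rule, and each stretch holds a motif. Gpi1, Tpi1 and Car12 had neither motif in a window, and of these Gpi1 and Tpi1 were called lower with all 7 drugs.
Hk2, chr6:82774455-82774704, minus strand: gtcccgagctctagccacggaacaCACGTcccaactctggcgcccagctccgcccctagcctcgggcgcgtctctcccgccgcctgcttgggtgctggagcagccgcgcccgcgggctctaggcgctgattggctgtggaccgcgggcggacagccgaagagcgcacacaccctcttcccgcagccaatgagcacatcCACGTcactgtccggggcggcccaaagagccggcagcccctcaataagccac
Pgk1, chrX:106186850-106187099, plus strand: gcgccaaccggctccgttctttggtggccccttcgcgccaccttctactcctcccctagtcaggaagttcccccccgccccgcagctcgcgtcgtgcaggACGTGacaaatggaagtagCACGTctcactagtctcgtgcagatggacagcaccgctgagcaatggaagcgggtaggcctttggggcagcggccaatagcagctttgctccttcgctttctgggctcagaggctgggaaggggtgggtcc
Pdk1, chr2:71872974-71873223, plus strand: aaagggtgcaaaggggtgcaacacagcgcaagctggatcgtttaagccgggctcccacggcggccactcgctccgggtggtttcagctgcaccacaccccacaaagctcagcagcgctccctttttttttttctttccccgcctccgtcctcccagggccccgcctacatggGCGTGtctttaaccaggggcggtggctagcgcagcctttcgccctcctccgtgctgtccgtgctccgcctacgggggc
Ak4, chr4:101419039-101419276, plus strand: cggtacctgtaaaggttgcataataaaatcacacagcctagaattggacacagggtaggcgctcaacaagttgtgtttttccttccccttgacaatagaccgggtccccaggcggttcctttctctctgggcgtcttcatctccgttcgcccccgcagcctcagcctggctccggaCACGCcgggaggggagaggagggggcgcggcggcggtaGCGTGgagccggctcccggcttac
Bnip3, chr7:138909520-138909756, minus strand: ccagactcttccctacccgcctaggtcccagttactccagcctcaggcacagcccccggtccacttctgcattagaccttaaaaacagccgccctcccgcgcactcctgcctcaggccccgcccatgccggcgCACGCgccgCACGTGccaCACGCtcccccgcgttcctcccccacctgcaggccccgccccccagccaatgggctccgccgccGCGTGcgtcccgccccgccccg
P4ha1, chr10:59323046-59323295, plus strand: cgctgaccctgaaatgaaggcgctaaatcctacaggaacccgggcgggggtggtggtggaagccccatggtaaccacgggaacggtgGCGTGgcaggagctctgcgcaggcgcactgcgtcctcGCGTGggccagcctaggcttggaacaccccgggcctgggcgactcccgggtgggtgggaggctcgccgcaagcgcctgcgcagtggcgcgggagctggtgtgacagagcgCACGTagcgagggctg
Plod1, chr4:147936777-147937026, minus strand: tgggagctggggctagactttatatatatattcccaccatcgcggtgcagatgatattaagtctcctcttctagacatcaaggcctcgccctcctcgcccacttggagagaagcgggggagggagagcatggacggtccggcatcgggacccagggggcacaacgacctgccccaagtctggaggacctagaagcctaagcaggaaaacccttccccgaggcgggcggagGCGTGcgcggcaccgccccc
Bnip3 held 5 marked sites within 237 bases, P4ha1 held 3, Hk2, Pgk1 and Ak4 held 2 each, and Pdk1 and Plod1 held 1 each. Of the Bnip3 sites, 2 overlap in a CACGTG, and the 2 Pgk1 sites lie on opposite strands.

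Most members were lower in every drug group than in DMSO. Of the 36 rows, 29 were called lower with all 7 drugs, where 336 of the 15527 genes tested (2.16%) were. In these 29, each of the 21 drug libraries lay below each of the 3 DMSO libraries. Such a lack of overlap was not counted over all genes, so it has no share to stand beside. With PF-06873600, 30 rows were called lower and 2 higher, where 14.1% of all genes were called lower and 17.9% higher. With palbociclib the counts were 30 lower and 2 higher (all genes 17.4% and 18.5%), and with T/P 31 lower and 2 higher (all genes 14.6% and 15.1%). Alisertib had 30 lower and 3 higher (all genes 26.1% and 27.8%), docetaxel 30 lower and 2 higher (all genes 22.5% and 26.5%) and etoposide 31 lower and 2 higher (all genes 26.9% and 27.7%). Nutlin had 29 lower and 1 higher (all genes 11.4% and 8.02%). Because the members were chosen with these contrasts known, nothing is read from the distance between their counts and those of all genes.

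The median difference was smallest with Nutlin. The median log2 fold change over the 36 rows was -1.06 with PF-06873600, -1.43 with palbociclib, -1.31 with T/P, -1.41 with alisertib, -1.42 with docetaxel, -1.25 with etoposide and -0.95 with Nutlin, where the medians of all genes lay between 0.00 and 0.04. DMSO had the highest mean of the 8 groups in 29 of 36 rows. Nutlin had the second highest in 19 and PF-06873600 in 7, while the lowest mean fell to docetaxel in 9 rows, etoposide in 8, alisertib in 7 and palbociclib and T/P in 4 each. The order of the group means was not counted over all genes. Scaling to total counts in place of TMM raised the median of all genes by 0.196 with alisertib, 0.209 with docetaxel and 0.211 with etoposide; the members' medians were then -1.22, -1.21 and -1.03, and 30 rows were called lower with each, where TMM gave 30, 30 and 31. Called higher were then 3, 4 and 3 rows, where TMM gave 3, 2 and 2. The share of higher calls among all genes called moved under that scaling to 72.0% from 56.0% with PF-06873600, to 65.6% from 51.5% with palbociclib, to 71.8% from 51.5% with alisertib, to 78.4% from 54.2% with docetaxel and to 71.6% from 50.7% with etoposide. With T/P it moved less, to 58.4% from 50.8%, and with Nutlin the other way, to 36.1% from 41.3%.

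**Figure D1:**
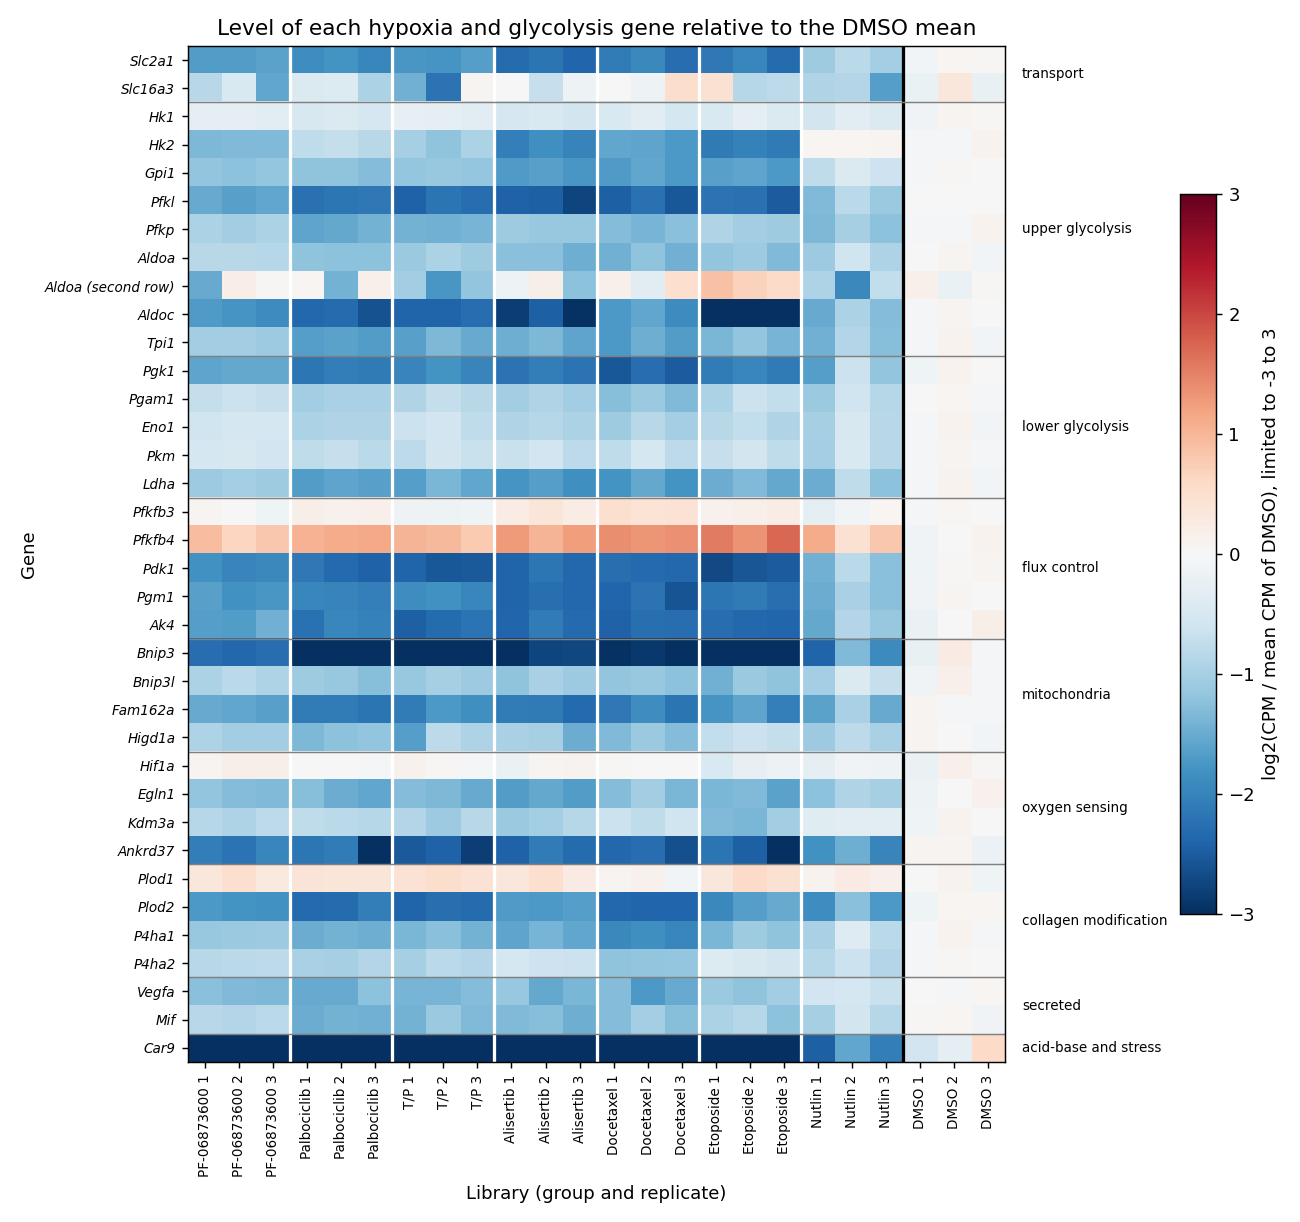
Level of each of the 36 tested rows in each of the 24 libraries as log2(CPM over the DMSO mean), limited to -3 to 3 on the colour scale, with rows grouped by role and the 3 DMSO libraries at the right. The 29 rows called lower with all 7 drugs are blue in all 21 drug libraries, Pfkfb4 is red in all of them, and Hif1a stays near white.

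Slc2a1 encodes GLUT1, the main glucose transporter of most growing cells. Slc2a1 had 59.4, 59.3 and 61.7 CPM in the PF-06873600 libraries, 52.3, 54.4 and 48.8 CPM with palbociclib and 56.7, 55.3 and 59.9 CPM with T/P. The alisertib libraries held 37.9, 41.3 and 36.3 CPM of Slc2a1, the docetaxel libraries 44.2, 49.3 and 38.7 CPM and the etoposide libraries 42.7, 48.9 and 38.5 CPM. With Nutlin the Slc2a1 values were 89.7, 109 and 94.1 CPM, against 178, 196 and 193 CPM in DMSO. The 21 drug libraries and the 3 DMSO libraries did not overlap, and the highest drug values were those with Nutlin. On the log2 scale the fold changes lay between -0.96 ± 0.09 with Nutlin and -2.30 ± 0.09 with alisertib. Slc16a3 encodes MCT4, the lactate exporter that hypoxia raises in many cells; it stayed under 0.81 CPM in every library, with 3 to 42 counts each, and was not called in any comparison.

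The first steps of glycolysis trap and split glucose: hexokinases (Hk1, Hk2) phosphorylate it, Gpi1 isomerises it, phosphofructokinases (Pfkl, Pfkp) commit it, aldolases (Aldoa, Aldoc) cleave it, and Tpi1 interconverts the products. Of the 9 rows of this group, 7 were called lower with all 7 drugs, and Hk2 was called lower with 6 and not with Nutlin. The second Aldoa row reached no more than 1.22 CPM and was called lower with T/P alone.

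Hk2 is the inducible hexokinase of many tumours. Hk2 had 106, 108 and 108 CPM in the PF-06873600 libraries, 159, 164 and 152 CPM with palbociclib and 135, 117 and 139.96 CPM with T/P. The alisertib libraries held 64.9, 75.5 and 66.8 CPM of Hk2, the docetaxel libraries 91.1, 89.6 and 81.8 CPM and the etoposide libraries 61.5, 65.6 and 61.7 CPM. With Nutlin the Hk2 values were 279, 279.8 and 284 CPM, against 259, 259 and 291 CPM in DMSO. The Nutlin libraries lay above DMSO 1 and DMSO 2 and below DMSO 3, with a log2 fold change of 0.06 ± 0.07, and the other 18 drug libraries lay below all 3. Those 6 groups ranged between -0.77 ± 0.07 with palbociclib and -2.10 ± 0.07 with etoposide. Hk1, the constitutive hexokinase, moved less: its fold changes lay between -0.29 ± 0.07 with T/P and -0.51 ± 0.07 with alisertib.

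Pfkl encodes the liver-type phosphofructokinase. The Pfkl level was 151, 139.8 and 147 CPM with PF-06873600, 92.7, 96.9 and 97.8 CPM with palbociclib and 80.98, 95.7 and 89.3 CPM with T/P. For Pfkl, alisertib gave 81.1, 80.01 and 64.3 CPM, docetaxel 79.5, 91.5 and 74.4 CPM and etoposide 93.3, 91.3 and 76.6 CPM. Nutlin libraries held 173, 248 and 199.99 CPM of Pfkl, against 433, 438 and 431 CPM in the DMSO libraries. All 21 drug libraries were below DMSO, and Nutlin 2 was the highest of them. Fold changes of Pfkl were between -1.07 ± 0.11 with Nutlin and -2.53 ± 0.11 with alisertib. Pfkp, the platelet type, was between -0.98 ± 0.07 with PF-06873600 and -1.51 ± 0.07 with palbociclib.

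Aldoc, the aldolase best known from brain, had the largest range of the glycolytic enzymes. Aldoc had 17.5, 16.8 and 15.4 CPM in the PF-06873600 libraries, 11.1, 11.6 and 9.28 CPM with palbociclib and 10.8, 10.7 and 11.7 CPM with T/P. The alisertib libraries held 8.02, 10.4 and 7.28 CPM of Aldoc, the docetaxel libraries 17.4, 19.4 and 15.3 CPM and the etoposide libraries 4.65, 4.98 and 5.27 CPM. With Nutlin the Aldoc values were 20.1, 29.4 and 23.3 CPM, against 54.9, 59.9 and 56.1 CPM in DMSO. The etoposide libraries were the lowest 3 of the 24, and no drug library reached DMSO. Its fold changes lay between -1.23 ± 0.12 with Nutlin and -3.52 ± 0.14 with etoposide. Aldoa, the main aldolase of these cells, lay between -0.84 ± 0.10 with PF-06873600 and -1.35 ± 0.10 with docetaxel, Gpi1 between -0.60 ± 0.07 with Nutlin and -1.69 ± 0.07 with alisertib, and Tpi1 between -1.07 ± 0.11 with PF-06873600 and -1.65 ± 0.11 with palbociclib.

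The second part of glycolysis harvests ATP and ends in lactate: Pgk1 and Pkm (pyruvate kinase) make ATP, Pgam1 and Eno1 prepare the substrate of Pkm, and Ldha reduces pyruvate to lactate. All 5 were called lower with all 7 drugs.

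Pgk1 is a classical HIF target and was among the most abundant members. Its gene is ENSMUSG00000062070.12 on chromosome X (mm10, 106187100 to 106203699). Pgk1 had 1343, 1388 and 1398 CPM in the PF-06873600 libraries, 895, 964 and 930.01 CPM with palbociclib and 1024, 1160.0 and 1028 CPM with T/P. The alisertib libraries held 874, 967 and 869 CPM of Pgk1, the docetaxel libraries 694, 831 and 721 CPM and the etoposide libraries 942, 1040.5 and 933 CPM. With Nutlin the Pgk1 values were 1282, 2574 and 1792 CPM, against 3711, 4347 and 4082 CPM in DMSO. The Nutlin libraries were widely spread; Nutlin 2 was the highest drug library and still lay below every DMSO library. Fold changes of Pgk1 were between -1.10 ± 0.15 with Nutlin and -2.44 ± 0.15 with docetaxel.

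The Ldha level was 1178, 1235 and 1193 CPM with PF-06873600, 787, 836 and 813 CPM with palbociclib and 801, 970.3 and 849.95 CPM with T/P. For Ldha, alisertib gave 738, 796 and 695 CPM, docetaxel 724, 862 and 722 CPM and etoposide 889.7, 991 and 864 CPM. Nutlin libraries held 893, 1468 and 1065 CPM of Ldha, against 2435, 2688 and 2373 CPM in the DMSO libraries. No drug library of Ldha reached the DMSO range, and Nutlin 2 was again the highest of them. Its fold changes lay between -1.06 ± 0.12 with PF-06873600 and -1.75 ± 0.12 with alisertib. Pgam1 had 346, 364 and 349 CPM in the PF-06873600 libraries, 276, 291 and 290.3 CPM with palbociclib and 303, 343 and 319 CPM with T/P. The alisertib libraries held 277, 302 and 273 CPM of Pgam1, the docetaxel libraries 234, 261 and 226 CPM and the etoposide libraries 295, 359.6 and 341 CPM. With Nutlin the Pgam1 values were 264, 377 and 315 CPM, against 565, 592 and 543 CPM in DMSO. Here too the groups did not overlap, with fold changes between -0.68 ± 0.09 with PF-06873600 and -1.24 ± 0.10 with docetaxel. Eno1 and Pkm showed the smallest differences of this group: Eno1 lay between -0.55 ± 0.10 with PF-06873600 and -0.96 ± 0.10 with docetaxel and Pkm between -0.52 ± 0.11 with PF-06873600 and -0.75 ± 0.11 with Nutlin. Pgk1, Eno1, Ldha, Pkm, Aldoa, Tpi1, Pgam1 and Mif have near-identical copies elsewhere in the mouse genome, and the treatment of multiply aligned reads is not given in the sources used here, so their counts are uncertain to that degree.

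**Figure D2:**
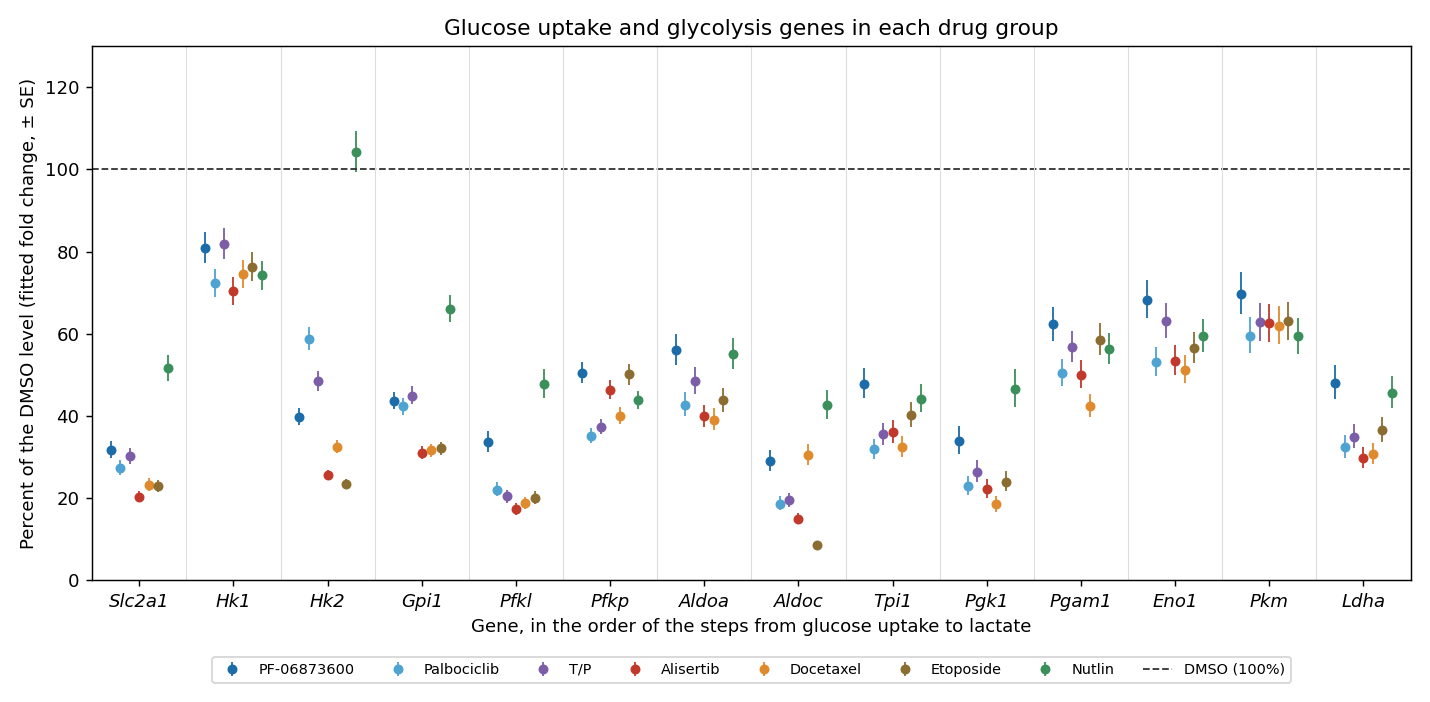
Fitted level of 14 genes of glucose uptake and glycolysis as a percent of DMSO, in pathway order, with bars of 1 SE and the 7 drugs side by side. Aldoc with etoposide is lowest at 8.73%, Hk1 and Pkm keep nearest to the dashed line at 100% across the drugs, and Hk2 with Nutlin stands at 104%.

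Per unit of length, the share of all transcripts that these enzymes took was lower as a whole. The 13 glycolytic enzymes among the members (Hk1 to Ldha) made up 0.943% ± 0.0067 of all TPM with PF-06873600, 0.739% ± 0.00719 with palbociclib, 0.771% ± 0.00718 with T/P, 0.794% ± 0.0173 with alisertib, 0.745% ± 0.0282 with docetaxel, 0.820% ± 0.0137 with etoposide and 0.881% ± 0.181 with Nutlin, against 1.71% ± 0.0866 in DMSO (mean ± SD, n = 3 each). In the TPM scale Pkm was higher than Pgk1 with docetaxel (2695 ± 112 against 1099 ± 45.8 TPM) and lower than Pgk1 in DMSO (3694 ± 147 against 5055 ± 451 TPM). The same order as with docetaxel held with PF-06873600, palbociclib, T/P, alisertib and etoposide. With Nutlin Pkm stood at 2150.0 ± 375 TPM and Pgk1 at 2298 ± 736 TPM, a difference within their spread. After Pgk1 and Pkm, the most abundant members in DMSO were Mif (2106 ± 61.95 TPM), Ldha (2113 ± 106) and Aldoa (2104 ± 58.1), which did not differ beyond their spread.

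Flux control genes set how much glucose carbon goes where. Pdk1 phosphorylates pyruvate dehydrogenase and so keeps pyruvate out of the citric acid cycle, Pgm1 links glucose 6-phosphate with glycogen, Ak4 is a mitochondrial adenylate kinase, and Pfkfb3 and Pfkfb4 set the level of fructose 2,6-bisphosphate, the activator of phosphofructokinase. Pdk1, Pgm1 and Ak4 were called lower with all 7 drugs, and Pfkfb4 was called higher with all 7.

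Pdk1 had 29.99, 26.7 and 27.7 CPM in the PF-06873600 libraries, 23.9, 20.999 and 19.9 CPM with palbociclib and 20.1, 18.1 and 18.5 CPM with T/P. The alisertib libraries held 20.1, 23.5 and 20.7 CPM of Pdk1, the docetaxel libraries 22.1, 21.1 and 20.6 CPM and the etoposide libraries 16.2, 18.03 and 18.96 CPM. With Nutlin the Pdk1 values were 39.4, 60.2 and 44.4 CPM, against 96.6, 109.6 and 112 CPM in DMSO. All drug libraries were below DMSO, and the Nutlin libraries were the highest 3 of the 21. Pdk1 fold changes lay between -1.14 ± 0.11 with Nutlin and -2.58 ± 0.12 with etoposide. The Pgm1 level was 58.6, 51.2 and 54.3 CPM with PF-06873600, 46.8, 45.3 and 43.9 CPM with palbociclib and 50.1, 51.5 and 46.7 CPM with T/P. For Pgm1, alisertib gave 34.002, 37.8 and 35.2 CPM, docetaxel 34.9, 38.7 and 29.9 CPM and etoposide 40.4, 41.5 and 37.6 CPM. Nutlin libraries held 64.1, 92.5 and 76.2 CPM of Pgm1, against 169, 190.2 and 184 CPM in the DMSO libraries. No Pgm1 library of any drug overlapped with DMSO, and the fold changes were between -1.22 ± 0.10 with Nutlin and -2.39 ± 0.10 with docetaxel. Ak4 had 27.1, 27.02 and 31.5 CPM in the PF-06873600 libraries, 18.3, 21.95 and 21.04 CPM with palbociclib and 15.6, 17.3 and 18.6 CPM with T/P. The alisertib libraries held 16.6, 19.9 and 17.04 CPM of Ak4, the docetaxel libraries 15.9, 17.97 and 17.6 CPM and the etoposide libraries 17.5, 16.7 and 16.6 CPM. With Nutlin the Ak4 values were 29.4, 46.6 and 38.9 CPM, against 74.3, 86.7 and 96.3 CPM in DMSO. For Ak4, too, Nutlin 2 was the highest drug library and lay below all DMSO libraries, and the fold changes were between -1.16 ± 0.12 with Nutlin and -2.34 ± 0.13 with etoposide.

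Pfkfb4 went the other way, and its per-library values are given because of that. The Pfkfb4 level was 12.1, 10.01 and 11.2 CPM with PF-06873600, 13.2, 13.8 and 13.98 CPM with palbociclib and 12.8, 12.6 and 10.9 CPM with T/P. For Pfkfb4, alisertib gave 15.6, 12.9 and 15.1 CPM, docetaxel 16.7, 16.1 and 16.5 CPM and etoposide 18.8, 16.3 and 21.2 CPM. Nutlin libraries held 13.9, 8.79 and 11.2 CPM of Pfkfb4, against 5.89, 6.38 and 6.86 CPM in the DMSO libraries. Every drug library lay above every DMSO library, with fold changes between 1.55 ± 0.13 with etoposide and 0.80 ± 0.13 with PF-06873600. Pfkfb3 was called higher with alisertib (0.27 ± 0.07) and docetaxel (0.44 ± 0.07) and was not called with the other 5, where it lay between 0.16 ± 0.07 with etoposide and -0.14 ± 0.07 with T/P.

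Of the mitochondrial group, Bnip3 and Bnip3l encode outer-membrane receptors that mark mitochondria for mitophagy, Fam162a encodes a mitochondrial protein linked to hypoxic cell death, and Higd1a a hypoxia-inducible protein of the inner membrane. All 4 were called lower with all 7 drugs.

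Bnip3 (ENSMUSG00000078566.8, chromosome 7, mm10, 138890836 to 138909519, minus strand) had the lowest fold change of the members above 10 CPM after Aldoc. Bnip3 had 55.1, 52.2 and 54.7 CPM in the PF-06873600 libraries, 28.5, 28.6 and 28.3 CPM with palbociclib and 29.2, 31.7 and 26.5 CPM with T/P. The alisertib libraries held 30.3, 39.6 and 40.4 CPM of Bnip3, the docetaxel libraries 34.6, 36.2 and 33.8 CPM and the etoposide libraries 23.8, 29.1 and 30.03 CPM. With Nutlin the Bnip3 values were 51.1, 106 and 71.7 CPM, against 229, 319 and 256 CPM in DMSO. The DMSO libraries themselves ran over a wide range, and the highest drug library, Nutlin 2, lay far below the lowest of them. Fold changes of Bnip3 were between -1.81 ± 0.17 with Nutlin and -3.28 ± 0.18 with etoposide, which left between 10.3% (etoposide) and 28.5% (Nutlin) of the DMSO level.

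The Fam162a level was 72.1, 70.5 and 67.1 CPM with PF-06873600, 48.1, 47.9 and 45.1 CPM with palbociclib and 47.98, 62.6 and 57.3 CPM with T/P. For Fam162a, alisertib gave 48.4, 47.7 and 40.6 CPM, docetaxel 46.4, 57.1 and 44.9 CPM and etoposide 60.4, 68.9 and 49.7 CPM. Nutlin libraries held 68.01, 105 and 71.8 CPM of Fam162a, against 219, 202 and 197 CPM in the DMSO libraries. No Fam162a library of a drug reached DMSO, and its fold changes lay between -1.33 ± 0.14 with Nutlin and -2.18 ± 0.14 with alisertib. Higd1a had 40.1, 36.8 and 36.6 CPM in the PF-06873600 libraries, 29.7, 32.04 and 33.4 CPM with palbociclib and 24.2, 43.8 and 39.9 CPM with T/P. The alisertib libraries held 38.5, 37.96 and 26.9 CPM of Higd1a, the docetaxel libraries 30.4, 35.05 and 30.97 CPM and the etoposide libraries 45.1, 48.7 and 46.5 CPM. With Nutlin the Higd1a values were 35.3, 43.97 and 38.7 CPM, against 79.9, 76.1 and 71.2 CPM in DMSO. Among the Higd1a values T/P 1 was the lowest of all 24, and the fold changes were between -0.70 ± 0.14 with etoposide and -1.26 ± 0.15 with palbociclib. Bnip3l moved less than Bnip3, with fold changes between -0.70 ± 0.11 with Nutlin and -1.25 ± 0.11 with etoposide.

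The oxygen sensing group holds the regulator itself. Hif1a had 200.1, 211 and 214 CPM in the PF-06873600 libraries, 188, 188 and 184 CPM with palbociclib and 205, 193 and 179 CPM with T/P. The alisertib libraries held 163, 199.9 and 202 CPM of Hif1a, the docetaxel libraries 192, 190.01 and 186 CPM and the etoposide libraries 138, 159 and 165 CPM. With Nutlin the Hif1a values were 154, 175 and 169 CPM, against 162, 209 and 192 CPM in DMSO. The Hif1a groups overlapped with DMSO throughout, and the fold change was called only with etoposide (-0.28 ± 0.09); in the other 6 groups it lay between 0.15 ± 0.09 with PF-06873600 and -0.18 ± 0.09 with Nutlin. These are mRNA levels and say nothing of the HIF-1α protein.

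Egln1 encodes PHD2, the main oxygen-sensing prolyl hydroxylase, and is itself a HIF target that acts as a brake. The Egln1 level was 101, 93.5 and 91.6 CPM with PF-06873600, 94.97, 82.2 and 77.8 CPM with palbociclib and 93.6, 90.8 and 80.5 CPM with T/P. For Egln1, alisertib gave 71.9, 78.98 and 72.5 CPM, docetaxel 92.9, 112 and 88.9 CPM and etoposide 89.7, 91.6 and 76.3 CPM. Nutlin libraries held 98.996, 123 and 115 CPM of Egln1, against 209, 229 and 254 CPM in the DMSO libraries. All drug libraries of Egln1 lay below DMSO, with fold changes between -1.04 ± 0.10 with Nutlin and -1.63 ± 0.10 with alisertib. Ankrd37, a small ankyrin-repeat gene induced by HIF-1, was low in all groups. Ankrd37 had 2.46, 2.21 and 2.65 CPM in the PF-06873600 libraries, 2.29, 2.41 and 1.20 CPM with palbociclib and 1.79, 1.92 and 1.46 CPM with T/P. The alisertib libraries held 1.91, 2.39 and 2.09 CPM of Ankrd37, the docetaxel libraries 2.02, 2.12 and 1.65 CPM and the etoposide libraries 2.25, 1.88 and 1.17 CPM. With Nutlin the Ankrd37 values were 2.94, 3.73 and 2.60 CPM, against 10.9, 10.98 and 9.05 CPM in DMSO. Its groups did not overlap with DMSO, and its fold changes lay between -1.73 ± 0.22 with Nutlin and -2.58 ± 0.23 with T/P. Kdm3a, a histone H3K9 demethylase, differed less. The Kdm3a level was 75.6, 71.6 and 78.7 CPM with PF-06873600, 79.6, 77.9 and 75.5 CPM with palbociclib and 73.4, 63.3 and 75.8 CPM with T/P. For Kdm3a, alisertib gave 62.4, 66.8 and 75.1 CPM, docetaxel 86.8, 80.1 and 90.03 CPM and etoposide 53.8, 52.1 and 65.9 CPM. Nutlin libraries held 106, 109 and 109 CPM of Kdm3a, against 125, 145 and 137 CPM in the DMSO libraries. The Nutlin libraries of Kdm3a were the highest of the drug libraries, and fold changes lay between -0.33 ± 0.09 with Nutlin and -1.24 ± 0.09 with etoposide. Egln3 (PHD3), an inducible paralogue, had 5 counts in all 24 libraries together and was not tested.

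Collagen-modifying enzymes are induced by hypoxia in fibroblasts and tumours: Plod1 and Plod2 hydroxylate lysines and P4ha1 and P4ha2 are the catalytic subunits of prolyl 4-hydroxylase. Plod2, P4ha1 and P4ha2 were called lower with all 7 drugs. Plod2 had 26.9, 25.8 and 25.3 CPM in the PF-06873600 libraries, 17.6, 18.01 and 20.995 CPM with palbociclib and 16.7, 18.7 and 17.9 CPM with T/P. The alisertib libraries held 27.2, 26.9 and 28.3 CPM of Plod2, the docetaxel libraries 17.3, 17.2 and 17.2 CPM and the etoposide libraries 23.3, 28.1 and 31.1 CPM. With Nutlin the Plod2 values were 24.3, 37.5 and 27.1 CPM, against 81.4, 92.4 and 92.8 CPM in DMSO. Drug and DMSO libraries of Plod2 did not overlap, and fold changes lay between -1.58 ± 0.12 with Nutlin and -2.37 ± 0.12 with docetaxel.

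The P4ha1 level was 100.4, 103 and 104 CPM with PF-06873600, 79.2, 82.2 and 79.6 CPM with palbociclib and 85.9, 92.3 and 82.4 CPM with T/P. For P4ha1, alisertib gave 73.97, 83.99 and 74.5 CPM, docetaxel 57.3, 61.8 and 56.8 CPM and etoposide 85.5, 105 and 95.1 CPM. Nutlin libraries held 112, 169 and 126 CPM of P4ha1, against 210.2, 237 and 214 CPM in the DMSO libraries. Nutlin 2 came nearest to DMSO for P4ha1, and fold changes were between -0.70 ± 0.10 with Nutlin and -1.91 ± 0.11 with docetaxel. P4ha2 had 45.6, 46.4 and 47.3 CPM in the PF-06873600 libraries, 41.5, 41.002 and 44.1 CPM with palbociclib and 40.9, 46.6 and 43.8 CPM with T/P. The alisertib libraries held 56.2, 52.9 and 51.8 CPM of P4ha2, the docetaxel libraries 34.9, 35.7 and 36.3 CPM and the etoposide libraries 61.01, 58.3 and 55.4 CPM. With Nutlin the P4ha2 values were 44.6, 52.02 and 44.1 CPM, against 79.8, 82.6 and 81.2 CPM in DMSO. For P4ha2 the 3 etoposide libraries and Alisertib 1 were the highest of the drug libraries, and its fold changes lay between -0.48 ± 0.07 with etoposide and -1.19 ± 0.07 with docetaxel. Plod1, the constitutive lysyl hydroxylase, did not share the direction: it was called higher with PF-06873600 (0.38 ± 0.08), palbociclib (0.37 ± 0.08), T/P (0.46 ± 0.08), alisertib (0.37 ± 0.08) and etoposide (0.46 ± 0.08) and was not called with docetaxel (0.05 ± 0.08) or Nutlin (0.17 ± 0.08).

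Of the secreted factors, Vegfa is the angiogenic growth factor and Mif a cytokine with tautomerase activity. Vegfa had 65.9, 63.2 and 62.5 CPM in the PF-06873600 libraries, 55.4, 55.8 and 67.1 CPM with palbociclib and 60.3, 60.5 and 64.6 CPM with T/P. The alisertib libraries held 71.5, 54.6 and 61.3 CPM of Vegfa, the docetaxel libraries 64.1, 48.1 and 55.9 CPM and the etoposide libraries 73.5, 68.6 and 76.9 CPM. With Nutlin the Vegfa values were 106, 111 and 98.9 CPM, against 157, 154 and 164 CPM in DMSO. Every drug library of Vegfa lay below DMSO, the 3 Nutlin libraries nearest to it, and fold changes were between -0.59 ± 0.09 with Nutlin and -1.49 ± 0.10 with docetaxel. The Mif level was 317, 303 and 319 CPM with PF-06873600, 201, 209 and 205 CPM with palbociclib and 211, 259 and 224 CPM with T/P. For Mif, alisertib gave 225, 229.6 and 202 CPM, docetaxel 228, 279 and 232 CPM and etoposide 291, 311 and 238 CPM. Nutlin libraries held 282, 384 and 308 CPM of Mif, against 579, 585 and 519 CPM in the DMSO libraries. The Mif groups did not overlap with DMSO either, and the fold changes lay between -0.79 ± 0.11 with Nutlin and -1.45 ± 0.11 with palbociclib. Adm (adrenomedullin) had 120 counts in all libraries together, 46 of them in DMSO, and was not tested.

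Car9 and Car12 encode membrane carbonic anhydrases that buffer the acid of glycolysis, and Ndrg1 is a stress gene. Car9, a standard marker of hypoxia, was low throughout, so its counts are given. It had 1, 7 and 5 counts with PF-06873600, 3, 8 and 5 with palbociclib, 0, 0 and 3 with T/P, 4, 4 and 8 with alisertib, 33, 2 and 9 with docetaxel, 6 to 9 with etoposide and 15, 32 and 22 with Nutlin, against 63, 81 and 153 in DMSO. The highest Car9 level with a drug was 1.39 CPM in Nutlin 2, against 2.75, 3.36 and 6.10 CPM in DMSO, and it was called lower with all 7 drugs. Car12 had 87 counts and Ndrg1 71 counts over the 24 libraries, and neither was tested.

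**Figure D3:**
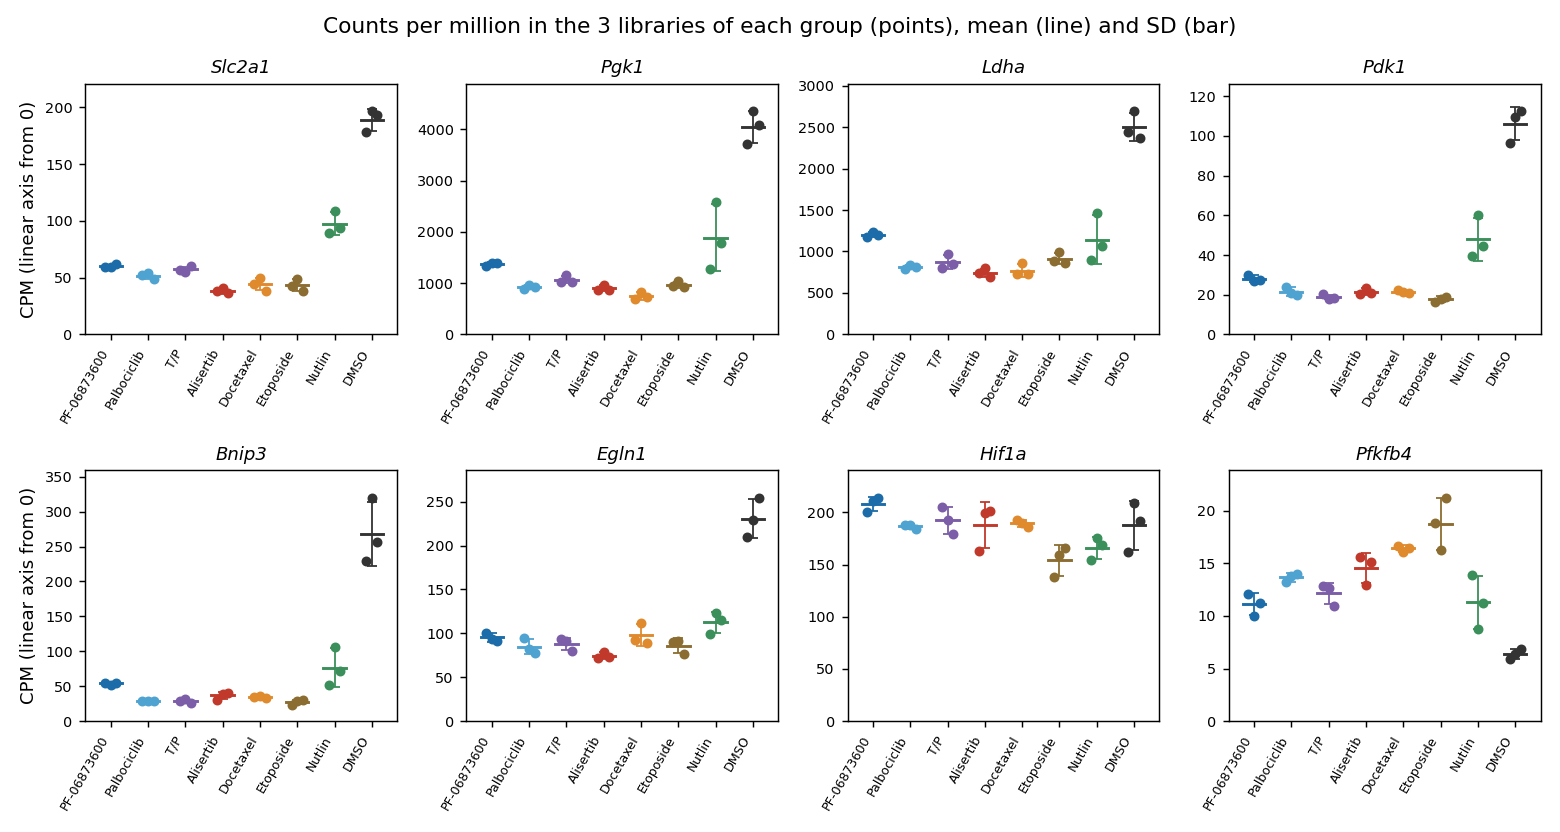
Level (CPM) of 8 members in each library, on linear axes from 0, with the group mean (line) and SD (bar). DMSO stands above all 7 drugs for Slc2a1, Pgk1, Ldha, Pdk1, Bnip3 and Egln1, while Hif1a overlaps and Pfkfb4 is lowest in DMSO.

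Because isozymes did not move equally, their proportions differed between drugs and DMSO. These shares are of the summed TPM of a family, with SD over 3 libraries, and are descriptions. Hk2 made up 47.9% ± 0.789 of hexokinase TPM (Hk1 and Hk2) with PF-06873600, 60.2% ± 0.311 with palbociclib, 52.4% ± 2.58 with T/P, 40.4% ± 1.42 with alisertib, 44.9% ± 1.43 with docetaxel, 36.4% ± 0.428 with etoposide and 72.4% ± 1.58 with Nutlin, against 65.1% ± 1.94 in DMSO. Nutlin was the only drug with a Hk2 share above DMSO. Pfkl made up 34.3% to 46.6% of phosphofructokinase TPM (with Pfkp and Pfkm) in the group means of the 6 other drugs and 57.6% ± 3.66 with Nutlin, against 65.03% ± 0.305 in DMSO. The Bnip3 share of Bnip3 and Bnip3l was 28.8% to 44.4% with the drugs, against 63.9% ± 1.72 in DMSO. Egln1 was 49.8% to 54.3% of Egln1 and Egln2 with the drugs, against 74.7% ± 2.24 in DMSO. Pdk1 was 2.81% to 7.27% of the 4 pyruvate dehydrogenase kinases with the drugs, against 14.1% ± 1.05 in DMSO. The Aldoc share of the aldolases was 0.463% with etoposide and 1.78% with docetaxel, against 2.27% ± 0.086 in DMSO.

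**Figure D4:**
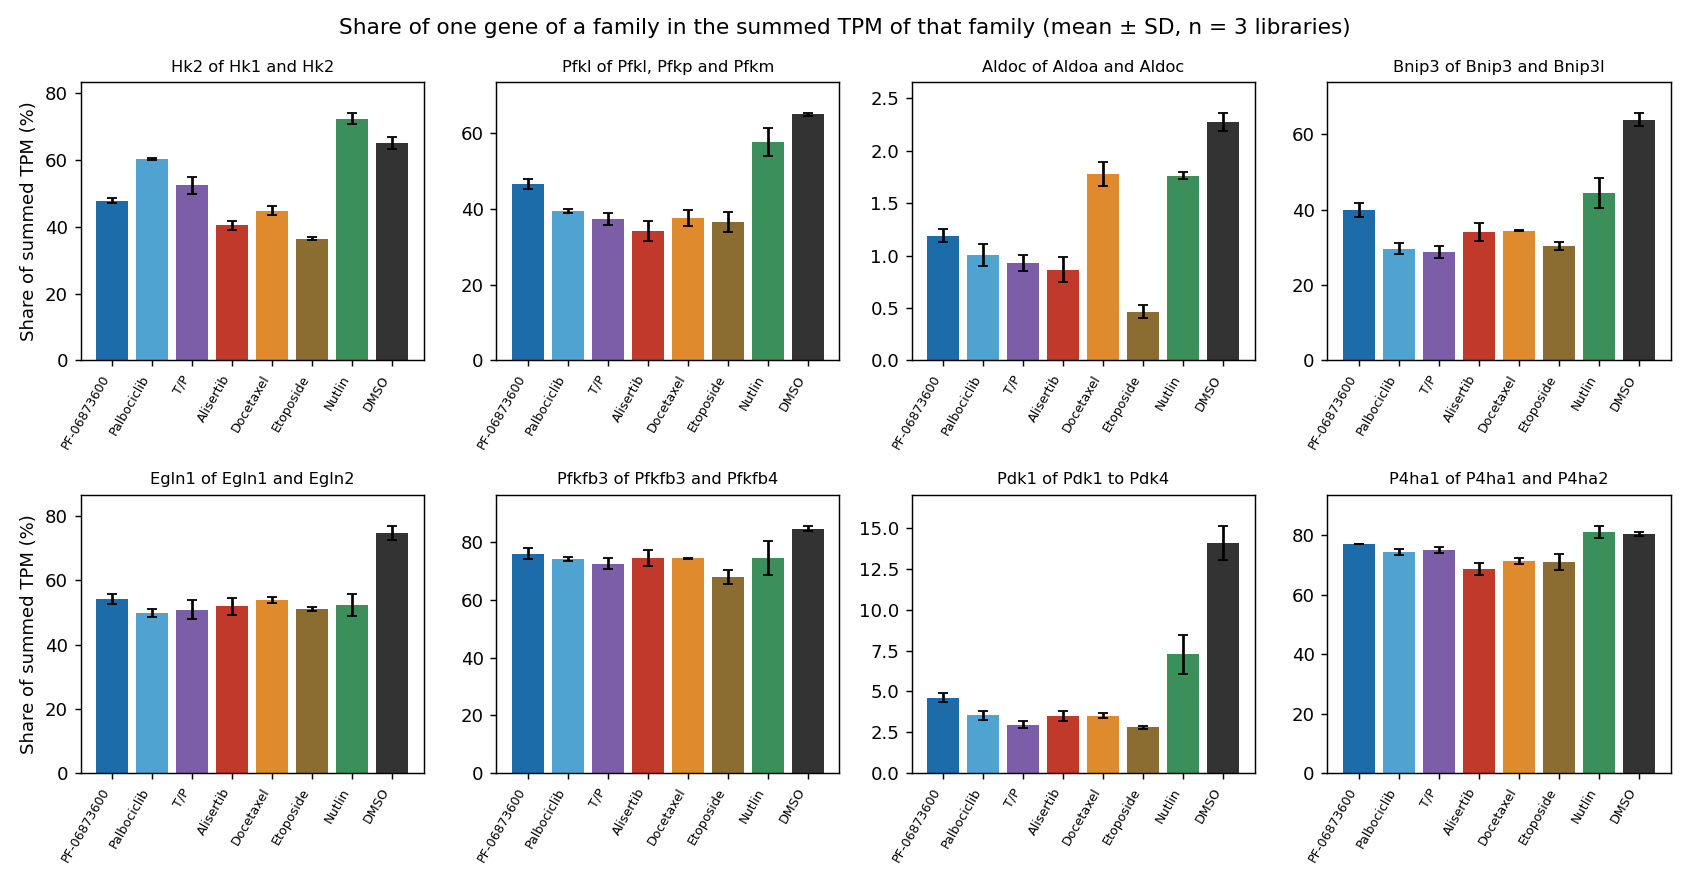
Share of one gene in the summed TPM of its family, as group means with SD over 3 libraries, with the 7 drugs at the left of each panel and DMSO at the right. The Pfkl, Bnip3, Egln1 and Pdk1 shares are highest in DMSO, and the Hk2 share with Nutlin (72.4%) is above that in DMSO (65.1%).

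The rest of the pathway was read from 168 other genes in 7 lists, which were also drawn up with earlier results of these data known. Of these, 167 are in the table (Ero1a has no row) and 143 had enough counts. Called lower and higher were 38 and 28 of the 143 with PF-06873600 (all genes 14.1% and 17.9%). Palbociclib gave 54 and 23 (all genes 17.4% and 18.5%), and T/P 42 and 26 (14.6% and 15.1%). There were 63 and 31 with alisertib (26.1% and 27.8%) and 63 and 30 with docetaxel (22.5% and 26.5%). There were 64 and 32 with etoposide (26.9% and 27.7%) and 43 and 12 with Nutlin (11.4% and 8.02%). The medians of the 143 lay between 0.00 with PF-06873600 and -0.17 with alisertib, where those of all genes lay between 0.00 and 0.04. Lower calls made up 26.6% of the 143 with PF-06873600 and 30.1% with Nutlin, against 14.1% and 11.4% of all genes, and 44.8% with etoposide, against 26.9%. Higher calls were near the share of all genes with PF-06873600 (19.6% against 17.9%) and Nutlin (8.39% against 8.02%) and below it with etoposide (22.4% against 27.7%). Adjusted p-values below are from edgeR's quasi-likelihood test over 15527 genes, and the lists of 9 or 10 genes are too short for their shares to be read.

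Gapdh, the enzyme between Tpi1 and Pgk1 and a usual reference gene, fell with all 7 drugs; it too has near-identical copies elsewhere in the genome, so its counts are uncertain to that degree. The Gapdh level was 1812, 1838 and 1824 CPM with PF-06873600, 1374, 1421 and 1424 CPM with palbociclib and 1619, 1676 and 1502 CPM with T/P. For Gapdh, alisertib gave 1371, 1396 and 1254 CPM, docetaxel 1272, 1482 and 1262 CPM and etoposide 1645, 1757 and 1464 CPM. Nutlin libraries held 1614, 2328 and 1827 CPM of Gapdh, against 3662, 3908 and 3583 CPM in the DMSO libraries. All drug libraries lay below DMSO, and the log2 fold changes were between -0.95 ± 0.10 with Nutlin and -1.47 ± 0.10 with docetaxel (edgeR adjusted p of 2.9e-07 and 2.9e-11). Of 24 other glycolysis isozymes and partners with Gapdh among them, 5 fell and 5 rose with PF-06873600 (all genes 14.1% and 17.9%). These counts were 7 and 5 with palbociclib (all genes 17.4% and 18.5%) and 6 and 4 with T/P (14.6% and 15.1%). With alisertib 7 and 6 fell and rose (26.1% and 27.8%), and with docetaxel 9 and 6 (22.5% and 26.5%). With etoposide they were 11 and 7 (26.9% and 27.7%), and with Nutlin 6 and 3 (11.4% and 8.02%). The medians of this list lay between -0.13 with etoposide and 0.08 with palbociclib. Its highest log2 fold change lay between 2.39 with Nutlin and 6.70 with docetaxel. Its lowest lay between -1.03 with PF-06873600 and -1.47 with docetaxel. The genes described from this list are ones that fell, and those that rose are not named. Bsg, the chaperone of the lactate transporters, fell with 6 drugs (between -0.91 ± 0.11 with T/P and -1.27 ± 0.11 with docetaxel; edgeR adjusted p at most 1.1e-06) and had -0.24 ± 0.11 with Nutlin (adjusted p = 0.15). Eno1b fell with all 7, between -0.58 ± 0.11 with PF-06873600 and -1.07 ± 0.11 with alisertib, but nearly shares its sequence with Eno1, so its counts are uncertain.

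The machinery that makes, degrades and assists HIF showed differences in both directions. Of its 17 tested genes, 4 were lower and 2 higher with PF-06873600 (all genes 14.1% and 17.9%). The counts were 5 and 3 with palbociclib (all genes 17.4% and 18.5%) and 5 and 2 with T/P (14.6% and 15.1%). They were 6 and 4 with alisertib (26.1% and 27.8%) and 5 and 4 with docetaxel (22.5% and 26.5%). Etoposide had 6 and 4 (26.9% and 27.7%), and Nutlin 3 and 3 (11.4% and 8.02%). The list medians lay between -0.16 and 0.00. The highest log2 fold change of the list was 5.78 with PF-06873600, 3.70 with palbociclib and 3.93 with T/P. It was 6.49 with alisertib, 5.97 with docetaxel, 7.18 with etoposide and 0.61 with Nutlin. The lowest lay between -0.55 with T/P and -1.78 with Nutlin. Apart from Os9 with Nutlin, the genes with these highest values are not named here. The lower share was 17.6% with Nutlin and 35.3% with etoposide, against 11.4% and 26.9% of all genes. Epas1, which encodes HIF-2α and was named after its values were seen, was low, with 1.49, 1.39 and 2.01 CPM with docetaxel and 0.299, 0.173 and 0.132 CPM with Nutlin, against 0.524, 0.953 and 0.598 CPM in DMSO. It rose with alisertib (1.52 ± 0.28, edgeR adjusted p = 0.0001), docetaxel (1.22 ± 0.28, adjusted p = 0.0011) and etoposide (1.15 ± 0.29, adjusted p = 0.0017). Epas1 was also called higher with palbociclib (0.86 ± 0.29) and T/P (0.83 ± 0.29), calls that were both lost without DMSO 1, without DMSO 3, with no low-count filter and in fits of only 2 groups, for palbociclib also without Palbociclib 3, and for T/P without any 1 of its libraries. With Nutlin it fell (edgeR log2 fold change -1.78 ± 0.39, adjusted p = 0.0017), a call that was lost with limma on TPM and without the libraries numbered 2. Arnt, the partner of HIF-1α, fell with etoposide (-0.45 ± 0.07, edgeR adjusted p = 5.1e-06) and docetaxel (-0.25 ± 0.07, adjusted p = 0.0037). Vhl, the ubiquitin ligase subunit that recognises hydroxylated HIF-1α, fell most with alisertib (-0.58 ± 0.11, edgeR adjusted p = 8.1e-05). Os9, a lectin of the endoplasmic reticulum, fell with 6 drugs, most with etoposide (-1.19 ± 0.09, edgeR adjusted p = 2.3e-10), and rose with Nutlin (0.61 ± 0.09, adjusted p = 3.4e-05). The paralogue gene Egln2 rose with Nutlin (0.39 ± 0.09, edgeR adjusted p = 0.002) and was not called with the other 6.

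Of 38 other HIF target genes with enough counts, 16 fell and 9 rose with PF-06873600 (all genes 14.1% and 17.9%). It was 20 and 7 with palbociclib (all genes 17.4% and 18.5%) and 17 and 7 with T/P (14.6% and 15.1%). Alisertib gave 18 and 11 (26.1% and 27.8%), and docetaxel 20 and 10 (22.5% and 26.5%). Etoposide gave 18 and 10 (26.9% and 27.7%), and Nutlin 19 and 3 (11.4% and 8.02%). Lower calls made up 42.1% with PF-06873600 and 52.6% with docetaxel, against 14.1% and 22.5% of all genes. The list medians were -0.04, -0.43, -0.22, -0.12, -0.23, -0.25 and -0.35 in that order. Among these 38 genes the highest log2 fold change lay between 0.87 with palbociclib and 5.396 with alisertib. The lowest lay between -1.20 with PF-06873600 and -4.48 with Nutlin. Genes named in this paragraph are ones that fell with all 7 drugs, and those that rose are not named in it. Gys1, glycogen synthase, fell with all 7: it had 33.5, 33.4 and 34.9 CPM with alisertib and 51.5, 62.8 and 53.2 CPM with Nutlin, against 93.1, 106 and 112 CPM in DMSO, and fold changes between -0.89 ± 0.08 with Nutlin and -1.64 ± 0.08 with docetaxel (edgeR adjusted p at most 3.1e-08). Gbe1, the glycogen branching enzyme, fell with all 7 as well, between -0.79 ± 0.11 with PF-06873600 and -1.30 ± 0.11 with docetaxel (edgeR adjusted p at most 5e-06). So did Loxl2, a lysyl oxidase of the matrix, between -0.87 ± 0.14 with PF-06873600 and -1.49 ± 0.14 with docetaxel (edgeR adjusted p at most 2.5e-05), and the transcription factor gene Zfp395, between -0.56 ± 0.08 with Nutlin and -1.30 ± 0.08 with T/P (edgeR adjusted p at most 2e-05).

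The calls of several HIF targets with Nutlin were not those with most other drugs. Cp, the ferroxidase ceruloplasmin, fell with 6 drugs, between -1.12 ± 0.08 with PF-06873600 and -1.94 ± 0.08 with etoposide (edgeR adjusted p at most 3e-10), and had 0.01 ± 0.08 with Nutlin (adjusted p = 0.97). Errfi1, a feedback inhibitor of the EGF receptor, fell with the same 6, between -0.75 ± 0.11 with T/P and -1.97 ± 0.12 with etoposide, and had -0.29 ± 0.11 with Nutlin (edgeR adjusted p = 0.074). Bhlhe40, a clock-linked repressor, rose with Nutlin (0.98 ± 0.10, edgeR adjusted p = 2.4e-07), etoposide (0.49 ± 0.10) and T/P (0.28 ± 0.10). The differences between Nutlin and the other drugs were not tested.

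Glycogen breakdown and the pentose phosphate pathway branch from glycolysis. Of 9 glycogen and gluconeogenesis genes, 4 fell and 0 rose with PF-06873600 (all genes 14.1% and 17.9%). These counts were 5 and 0 with palbociclib (all genes 17.4% and 18.5%) and 4 and 1 with T/P (14.6% and 15.1%). They were 4 and 1 with alisertib (26.1% and 27.8%) and 6 and 2 with docetaxel (22.5% and 26.5%). For etoposide they were 4 and 1 (26.9% and 27.7%), and for Nutlin 3 and 1 (11.4% and 8.02%). The highest log2 fold change of this list lay between 2.74 with T/P and 7.89 with docetaxel, in genes not named here. Pygl is the liver glycogen phosphorylase. Pygl had 3.28, 3.58 and 2.72 CPM in the PF-06873600 libraries, 2.57, 3.03 and 3.09 CPM with palbociclib and 4.24, 3.56 and 3.11 CPM with T/P. The alisertib libraries held 2.51, 2.39 and 1.66 CPM of Pygl, the docetaxel libraries 2.69, 2.92 and 2.96 CPM and the etoposide libraries 2.33, 2.34 and 2.53 CPM. With Nutlin the Pygl values were 8.57, 16.3 and 10.9 CPM, against 24.5, 27.2 and 25.4 CPM in DMSO. No drug library reached DMSO, and its fold changes were between -1.10 ± 0.17 with Nutlin and -3.56 ± 0.19 with alisertib (edgeR adjusted p of 2.8e-05 and 4.2e-13). Pygb, the brain isozyme, fell less, between -0.34 ± 0.08 with PF-06873600 and -0.73 ± 0.08 with etoposide (edgeR adjusted p at most 0.0011). G6pdx, which opens the pentose phosphate pathway, fell with all 7, between -0.18 ± 0.06 with Nutlin and -1.55 ± 0.06 with etoposide (edgeR adjusted p = 0.044 with Nutlin and at most 3e-09 with the others). In that pathway 2 of 10 genes fell and 1 rose with PF-06873600 (all genes 14.1% and 17.9%). These counts were 3 and 1 with palbociclib (all genes 17.4% and 18.5%) and with T/P (14.6% and 15.1%). They were 6 and 2 with alisertib (26.1% and 27.8%) and 6 and 0 with docetaxel (22.5% and 26.5%). For etoposide they were 4 and 2 (26.9% and 27.7%), and for Nutlin 2 and 0 (11.4% and 8.02%).

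Pyruvate entry and the citric acid cycle had medians between -0.19 with alisertib and 0.11 with T/P over 36 genes. The lower share was 11.1% with PF-06873600, against 14.1% of all genes, and 36.1% with docetaxel, against 22.5%. Lower and higher calls numbered 4 and 10 with PF-06873600 (all genes 14.1% and 17.9%). They numbered 11 and 6 with palbociclib (all genes 17.4% and 18.5%) and 3 and 10 with T/P (14.6% and 15.1%). For alisertib there were 18 and 6 (26.1% and 27.8%), and for docetaxel 13 and 7 (22.5% and 26.5%). For etoposide there were 16 and 7 (26.9% and 27.7%), and for Nutlin 9 and 1 (11.4% and 8.02%). The malic enzymes Me1 and Me2, which turn malate into pyruvate, rose with all drugs except Nutlin: Me2 lay between 1.07 ± 0.08 with alisertib and 0.79 ± 0.08 with palbociclib (edgeR adjusted p at most 3.5e-08) and had -0.15 ± 0.08 with Nutlin (adjusted p = 0.2). Me1 lay between 1.15 ± 0.09 with alisertib and 0.25 ± 0.09 with docetaxel and had -0.15 ± 0.09 with Nutlin (edgeR adjusted p = 0.25). Of the other pyruvate dehydrogenase kinases, Pdk4 rose with etoposide (1.62 ± 0.12, edgeR adjusted p = 4.8e-11), alisertib (1.18 ± 0.12), docetaxel (0.70 ± 0.12), T/P (0.51 ± 0.12) and palbociclib (0.44 ± 0.12), and Pdk2 fell most with etoposide (-1.18 ± 0.07, edgeR adjusted p = 5.8e-13).

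Txnip and Arrdc4 encode arrestins that limit glucose uptake and whose transcription follows glucose through MondoA. Their list of 9 glucose-responsive regulators had 3 falls and 1 rise with PF-06873600 (all genes 14.1% and 17.9%). These counts were 3 and 1 with palbociclib (all genes 17.4% and 18.5%) and 4 and 1 with T/P (14.6% and 15.1%). They were 4 and 1 with alisertib (26.1% and 27.8%) and with docetaxel (22.5% and 26.5%). For etoposide they were 5 and 1 (26.9% and 27.7%), and for Nutlin 1 and 1 (11.4% and 8.02%). The Txnip level was 442, 399 and 454 CPM with PF-06873600, 372, 366 and 328 CPM with palbociclib and 290.3, 267 and 275 CPM with T/P. For Txnip, alisertib gave 249.9, 265 and 259 CPM, docetaxel 233, 233 and 230.04 CPM and etoposide 197, 176 and 180.3 CPM. Nutlin libraries held 899.98, 1058 and 989 CPM of Txnip, against 782, 866 and 879.6 CPM in the DMSO libraries. Txnip fell with 6 drugs, between -0.96 ± 0.07 with PF-06873600 and -2.19 ± 0.08 with etoposide (edgeR adjusted p at most 4.5e-10), and all 18 of those libraries lay below DMSO. With Nutlin all 3 libraries were above DMSO, by 0.22 ± 0.07 (edgeR adjusted p = 0.032), a call that was lost in 9 of 15 other settings, among them leaving out DMSO 1, DMSO 2, Nutlin 2 or Nutlin 3 (0.18, 0.24, 0.17 and 0.22 on the log2 scale). Arrdc4 fell with the same 6, between -0.71 ± 0.13 with etoposide and -2.15 ± 0.14 with T/P (edgeR adjusted p at most 9.9e-05), and had -0.30 ± 0.13 with Nutlin (adjusted p = 0.12); without Nutlin 2 the Arrdc4 fall with Nutlin was called.

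**Figure D5:**
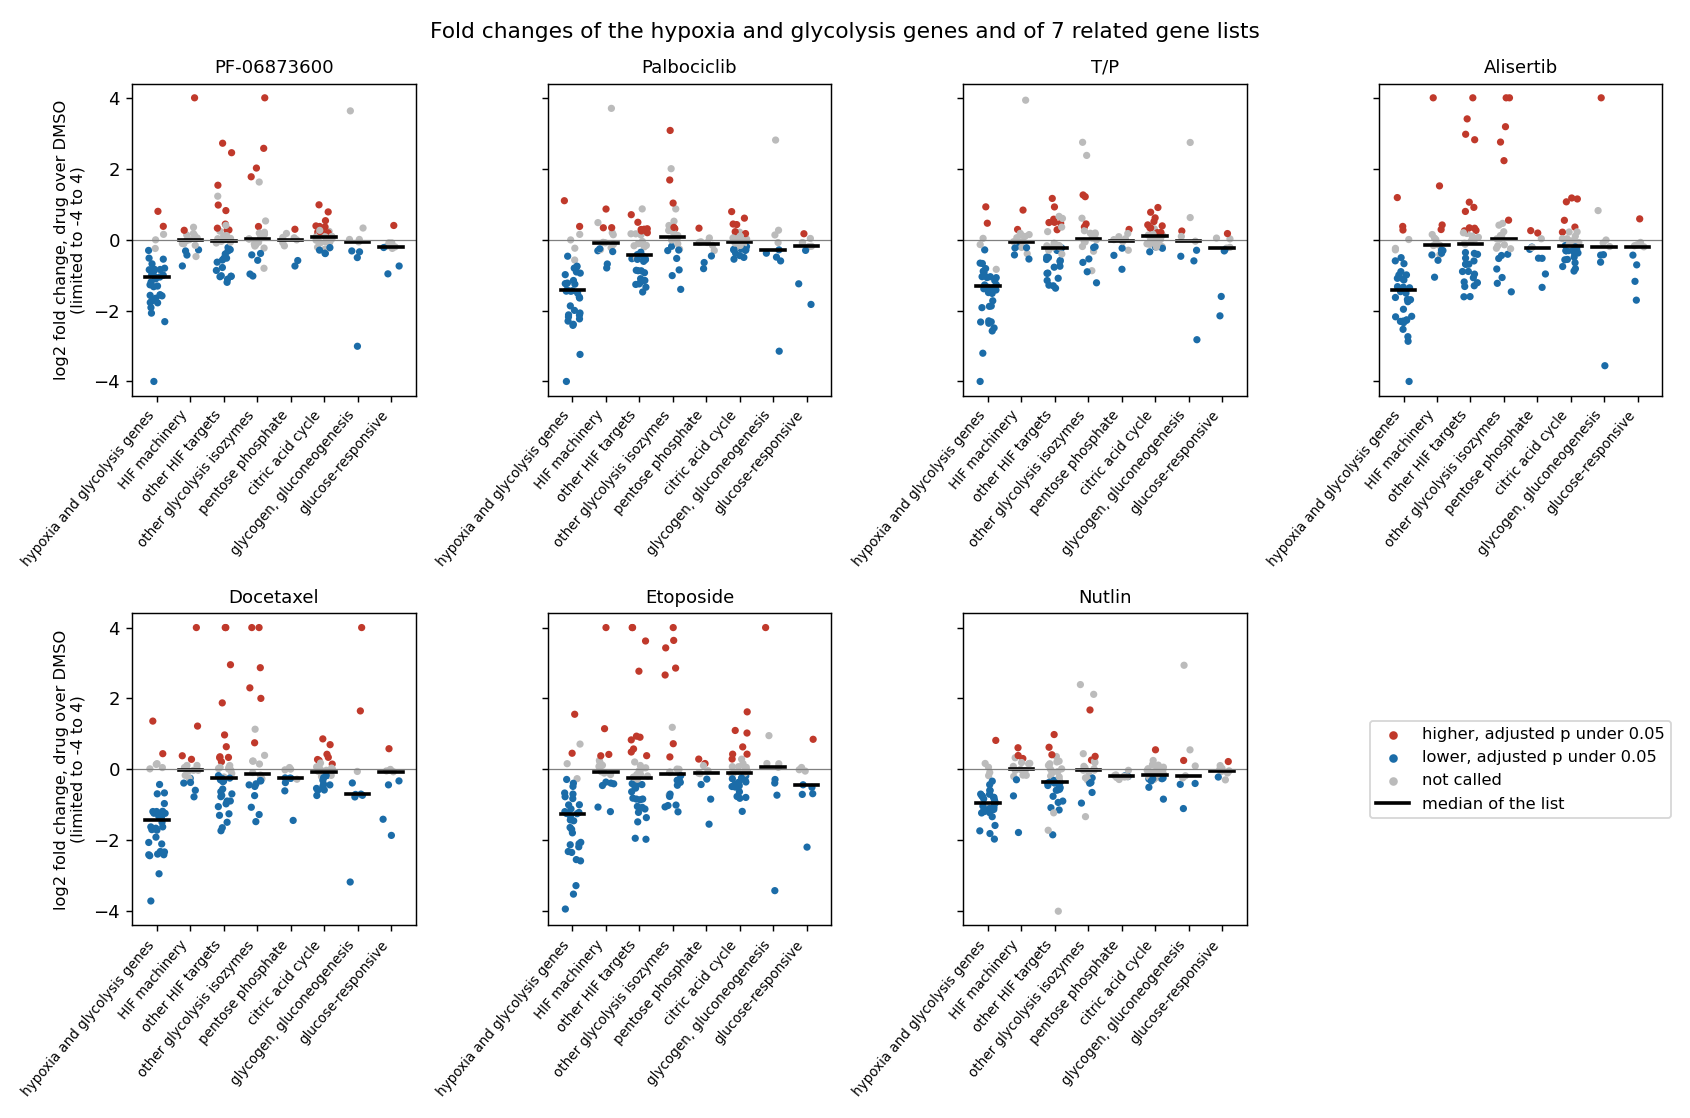
Log2 fold change of each tested gene against DMSO, limited to -4 to 4, for the 36 rows of hypoxia and glycolysis genes and for the genes of 7 related lists, one panel per drug; black lines are medians and colours mark calls at an adjusted p under 0.05. The medians of the hypoxia and glycolysis genes lie between -0.95 and -1.43, those of the 7 lists between -0.70 and 0.11.

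T/P and palbociclib share palbociclib at the same stated dose, so their comparison asks what differs when trametinib is present. Of the 36 rows, 2 were called lower and 0 higher with T/P (all genes 2.47% lower and 1.64% higher). They were Pfkfb3 (-0.29 ± 0.07) and Hk2 (-0.28 ± 0.07). Hk2 had 135, 117 and 139.96 CPM with T/P, against 159, 164 and 152 CPM with palbociclib, and Pfkfb3 had 49.2, 48.99 and 50.1 CPM, against 61.01, 59.8 and 60.3 CPM; neither overlapped. Leaving out any 1 of the 6 libraries left 0 or 1 rows called. The median of the 36 rows was 0.07, with Pgk1 at 0.20 ± 0.14, Slc2a1 at 0.14 ± 0.09 and Bnip3 at 0.03 ± 0.18, none of them called. Of the 143 pathway genes, 5 fell (3.50%, against 2.47% of all genes) and 11 rose (7.69%, against 1.64%). These 16 calls became 7 without Palbociclib 2, 8 without Palbociclib 1 or T/P 2, 10 without Palbociclib 3 and 42 under the replicate block. Hmox1, heme oxygenase, rose by 0.69 ± 0.07 (edgeR adjusted p = 3.1e-06), Pim1, a survival kinase, rose by 0.64 ± 0.09 (edgeR adjusted p = 0.00012) and Ddit4, an inhibitor of mTORC1, fell by 0.78 ± 0.13 on the log2 scale (edgeR adjusted p = 0.0016). Txnip was called lower too, a call lost without T/P 2, Palbociclib 1 or Palbociclib 2 (-0.32, -0.31 and -0.33). So was Hif3a of the HIF machinery list, a call lost without T/P 2, T/P 3 or any 1 palbociclib library.

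PF-06873600 and palbociclib were used at 500 nM and 1 µM, so their values stand side by side with no comparison. Against DMSO, Hk2 was -1.33 ± 0.07 with PF-06873600 and -0.77 ± 0.07 with palbociclib, Pfkl was -1.57 ± 0.11 and -2.18 ± 0.11 in the same order, and Bnip3 -2.31 ± 0.17 and -3.24 ± 0.18. The median over the 36 rows was -1.06 with PF-06873600 and -1.43 with palbociclib.

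The Nutlin libraries differed most among themselves in these genes. Relative to their group means, the median deviation of the 36 rows on the log2 scale was -0.20 in Nutlin 1, 0.26 in Nutlin 2 and -0.04 in Nutlin 3, while it lay between -0.06 and 0.09 in the 21 other libraries. Nutlin 2 also had the highest Nutlin level of Slc2a1, Pfkl, Pgk1, Ldha, Pdk1, Pgm1 and Bnip3. Library 2 had the highest median deviation in 7 of the 8 groups. The nuclear RNA sum ran the other way within Nutlin, at 1973 CPM in Nutlin 1, 536 in Nutlin 2 and 1042 in Nutlin 3, and its part in this spread was not tested. Leaving out any 1 of the Nutlin or DMSO libraries left 29 to 31 rows called in that comparison.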

How the data were processed

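Total RNA of 24 Myc-CaP libraries was sequenced in pairs of reads, 3 libraries in each of 8 groups. Per the submitters' processing notes, reads were trimmed with fastp, aligned with STAR to mm10 and counted with featureCounts, and DESeq2 is named. Versions, the strand setting and the treatment of multiply aligned reads are not given in the sources used here. The authors deposited raw counts for 55487 genes. They also deposited TPM, their own scaling by transcript length and depth, for 24621 genes. Group and library came from the column names and titles.

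The members and all lists of genes were chosen with earlier results of these data known. The counts went into a quasi-likelihood model of edgeR 4.0.16 (R 4.3.3) with TMM factors, 1 coefficient for each of the 8 groups and 16 residual degrees of freedom; filterByExpr (minimum count 10, minimum total 15) left 15527 genes. P-values are two-sided and adjusted by Benjamini-Hochberg over all of these, and they measure only the spread between libraries. The fit was also run on simulated counts, with the same dispersion setting for every gene and changes placed in the palbociclib group alone. That setting is simpler than these data, so the run does not bear on the calls given here. Per-library values are given for Hif1a, Pgm1 and, in each role, up to 3 members with the largest range between groups and a highest group mean of at least 10 CPM; Pfkfb4 was added after its values were seen. Named pathway genes came from a rule on the size and constancy of their calls, with Txnip and Arrdc4; Epas1 was added after its values were seen.

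Alternatives were RLE factors, total counts, DESeq2 1.42.0, no filter, at least 1 CPM in 3 libraries, fits of only 2 groups, limma 3.58.1 on log2(TPM + 1), a block for the library number and leaving out each library; leaving out the libraries numbered 2 was chosen after seeing the data. Libraries with the same number deviated together in 3 comparisons with DMSO, with correlations of 0.117 to 0.310 for PF-06873600, 0.208 to 0.325 for alisertib and 0.170 to 0.352 for etoposide; the block changed no named call there. Promoter windows are those of RefSeq on GRCm38.p6, and gene positions are from GENCODE vM21 on mm10, where 38 of 40 rows matched. Some genes of the marker and pathway lists are not reported here by name.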

Additional observations from a re-analysis of the deposited data

How the results depend on the processing

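No called log2 fold change of a member or of a named pathway gene changed sign under any alternative run; Epas1, not called between T/P and palbociclib (-0.03), ran from -0.23 to 0.29 with 1 library left out, and was above 0 without T/P 3 (0.02) and without Palbociclib 3 (0.29). Of 4310 recomputed values of members, 3853 moved by less than the spread between libraries and 457 by more. Of 2460 recomputed values of named pathway genes, 2367 kept their direction and side of the threshold, 89 lost their call and 2 gained one, both of them Arrdc4 with Nutlin. Counts of members called against DMSO lay between 29 and 35 under every alternative, leaving out single libraries included. Counts of pathway genes called against DMSO stayed within 1.5 times the main count. The comparison of T/P with palbociclib was the one that moved. Its 2 called members became 0 with no low-count filter, 0 without the libraries numbered 2 and 4 under the replicate block, and 0 to 1 with 1 library left out. Its 16 called pathway genes became 42 under the replicate block, 29 with DESeq2 and 8 without the libraries numbered 2, and 7 to 18 with 1 library left out. The causes were not tested. In that comparison and in those of palbociclib, T/P, docetaxel and Nutlin with DMSO, not every number deviated together (correlations of -0.0184 to 0.396, in each the highest for the libraries numbered 2), so the numbers were not taken as pairs. Depth limits Car9, Ankrd37, Slc16a3 and the second Aldoa row, whose counts are low, and Egln3, Adm, Car12 and Ndrg1 could not be tested.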
